A study of Mus musculus with 12 samples.

Results

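The EGR, IER, NR4A and Myc early genes are 10 genes (Egr1, Egr2, Egr3, Ier2, Ier3, Ier5, Nr4a1, Nr4a2, Nr4a3 and Myc) among the 55487 genes counted in mouse mesenchymal stromal cells (MSCs). They were chosen by name, as the rows whose Ensembl identifiers map to these symbols, with earlier results of these data known, so that their counts against the background are a description of genes already seen to respond. All 10 had a row. The count of Nr4a3 was too low for the filter on low counts, so that 9 of the 10 were among the 11314 protein-coding genes tested.

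RNA was sequenced from primary bone marrow MSCs of wild-type (WT) C57BL/6 mice in 3 groups of 4 samples. Control MSCs (labelled Negative) received no A1. No treatment time is recorded for them, and the study's methods name no vehicle or medium change for this group. Effects of A1 therefore cannot be told apart from any difference in such handling between control and treated cells. The second group received 50 μM A1, a variant of the Accum molecule, for 6 h, and the third received 50 μM A1 with 1 mg/mL ovalbumin (OVA), a model antigen, for 6 h. The study's methods describe MSCs from the femurs of female mice 6 to 8 weeks old. The sources used here do not say whether the 4 samples of a group came from separate mice or cultures, so that p-values measure only the spread between these samples. No group received OVA alone. The labels also name insulin in the medium of the A1-OVA group, with no readable amount, so that OVA and anything else added with it cannot be told apart.

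Early genes are transcribed within minutes of a growth factor, stress or calcium signal, without the need for new protein, and their transcripts are usually short-lived. MAP kinases acting through serum response factor (SRF) and its partners, and cyclic AMP acting through CREB, are the best known routes to them. EGR proteins are zinc finger transcription factors, NR4A proteins are orphan nuclear receptors, IER proteins regulate stress responses and survival, and MYC drives genes of ribosome production and growth. In stromal cells and fibroblasts they are classical reporters of serum and growth factor stimulation.

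With A1, all 9 tested members had higher levels than control, and in each of them all 4 A1 samples lay above all 4 control samples. How many of all tested genes were separated in this way was not counted. Log2 fold changes ran from 0.30 for Nr4a2 to 2.50 for Egr3, with a median of 1.49 against -0.00 over all tested genes. The background was wide, since 31.7% of all tested genes were called higher and 31.1% lower at an adjusted p-value under 0.05. A call with an increase of at least 1 on the log2 scale was rarer, at 2.94% of tested genes, and 7 of the 9 members met it. With A1 and OVA, 8 of the 9 were higher than control, where 29.7% of all tested genes were called higher and 27.9% lower. Of these, 5 had a log2 fold change of at least 1, against 2.67% of tested genes. Both comparisons use the same 4 control samples. Between A1-OVA and A1, 4 members (Egr1, Egr2, Egr3 and Ier2) were lower. By edgeR's quasi-likelihood test 0 were higher, also at an unadjusted p under 0.05 and by DESeq2. In this comparison 6.05% of tested genes were called higher and 6.81% lower. A fall of at least 1 on the log2 scale was called in 7 of the 11314 genes (0.0619%), and 2 of these 7 were Egr2 and Egr3.

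**Figure D1:**
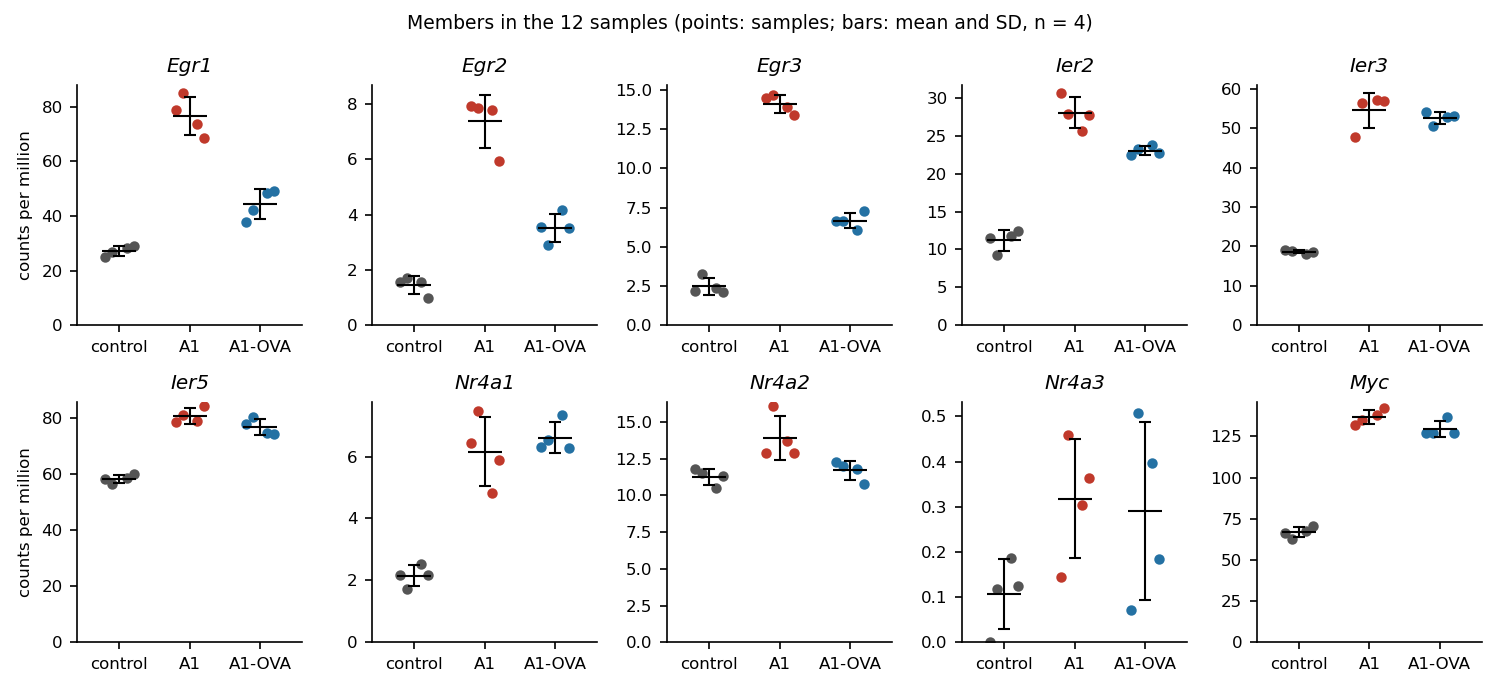
CPM (counts scaled to library size, y axis, linear from 0) of each member in control, A1 and A1-OVA samples; points are samples, and the bars give the mean and SD of 4 samples. The A1 samples of Egr1, Egr2, Egr3 and Ier2 sit above the A1-OVA samples, which sit above control, whereas the 2 treated groups of Ier3, Ier5, Nr4a1 and Myc lie at similar heights, and Nr4a3 stays under 1 CPM throughout.

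Promoter sequences were looked at because the members moved together with A1 but parted when OVA was added. RefSeq promoter windows of GRCm38.p6 were found for 6 of the 10 members (Egr2, Ier3, Ier5, Nr4a1, Nr4a2 and Nr4a3). Egr1, Egr3, Ier2 and Myc had none. Of the members called lower with A1-OVA than with A1, only Egr2 had a window, so that the windows cannot describe how the members parted. They are shown for the EGR member with a window, for the NR4A members that were tested and for the IER member with the highest treated level, from 250 bases before the start up to the base before it, 5′ to 3′ on the strand of the gene. The starts are those of RefSeq. For Ier3 the start lies 29 bases into a GENCODE M21 transcript, so that the last bases printed are inside that transcript. For Nr4a3, which is not printed, it lies 74 bases into one. Capitals mark the motif matches, in either orientation. The Egr2 sequence lies at chr10:67537619-67537868 (plus strand), that of Nr4a1 at chr15:101266596-101266845 (plus), that of Nr4a2 at chr2:57124004-57124253 (minus) and that of Ier3 at chr17:35821463-35821712 (plus).
Egr2: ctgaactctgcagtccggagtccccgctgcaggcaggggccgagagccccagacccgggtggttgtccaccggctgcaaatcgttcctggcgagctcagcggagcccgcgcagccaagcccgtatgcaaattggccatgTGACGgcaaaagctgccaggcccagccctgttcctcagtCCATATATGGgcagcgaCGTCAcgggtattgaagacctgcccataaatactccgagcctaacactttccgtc
Nr4a1: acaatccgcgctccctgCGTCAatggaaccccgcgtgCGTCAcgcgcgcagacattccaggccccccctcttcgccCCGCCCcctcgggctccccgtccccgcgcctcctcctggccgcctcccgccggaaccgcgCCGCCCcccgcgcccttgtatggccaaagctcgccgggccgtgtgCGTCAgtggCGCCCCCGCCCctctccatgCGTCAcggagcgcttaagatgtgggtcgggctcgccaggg
Nr4a2: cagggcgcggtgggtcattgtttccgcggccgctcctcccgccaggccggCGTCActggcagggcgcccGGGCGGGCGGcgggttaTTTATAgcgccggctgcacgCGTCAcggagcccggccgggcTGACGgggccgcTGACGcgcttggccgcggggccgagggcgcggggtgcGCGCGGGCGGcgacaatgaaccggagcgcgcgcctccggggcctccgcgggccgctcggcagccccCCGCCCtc
Ier3: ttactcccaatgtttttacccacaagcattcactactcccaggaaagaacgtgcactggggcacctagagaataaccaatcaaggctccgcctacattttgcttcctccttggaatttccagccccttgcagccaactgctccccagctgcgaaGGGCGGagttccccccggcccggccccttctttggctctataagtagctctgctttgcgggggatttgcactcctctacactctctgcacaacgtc

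Egr2 has 5 windows, of which 3 begin at a start of a GENCODE M21 transcript, and the first of these 3 is shown. In it the capitals mark 1 CArG box, the element that SRF binds, 72 to 63 bases before the start, and 2 copies of TGACG, the shorter form of the cyclic AMP response element, 1 on each strand. A CArG box is found in 1.63% of all 32851 mouse promoter windows of 300 bases (250 before and 50 after the start), and Egr2 was the only one of the 6 members with one, in 4 of its 5 windows. The 3 windows that begin at a transcript start overlap each other and hold the same box. The first window, near the start of the gene as annotated, held none. With more windows a gene has more chances of a match, and 1.81% of all genes had a CArG box in at least 1 window. Nr4a1 held 4 copies of TGACG, Nr4a2 held 4 and Nr4a3 held 4, whereas Ier3 and Ier5 held none. TGACG is found in 20.8% of all windows. The EGR site GCGNGGGCG was found in Nr4a1 and Nr4a2, each time overlapping a copy of GGGCGG, and in 5.55% of all windows. GGGCGG, which Sp1 family factors bind, was in a window of all 6 members and in 35.7% of all windows. TATAAA was found in Nr4a2 (13.6% of all windows) and the E-box CACGTG in another Egr2 window (7.15%). The full cyclic AMP element TGACGTCA (1.79%), the NR4A site AAAGGTCA (1.51%) and the AP-1 site TGANTCA (7.81%) were in none of the 6. Both strands were searched, and a match describes the letters only.

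**Figure D2:**
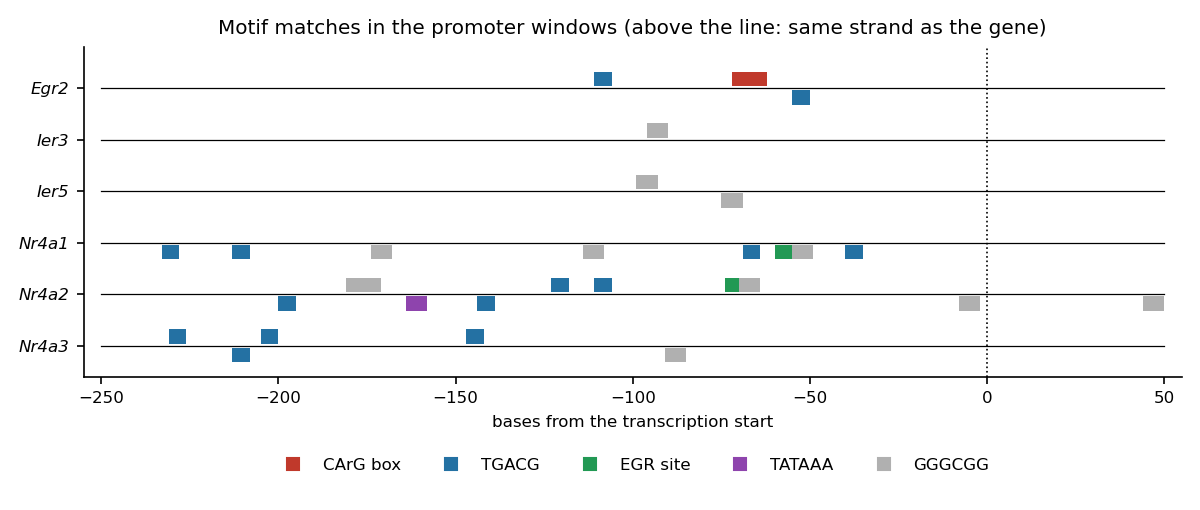
Motif matches (coloured boxes) in 1 promoter window of each of 6 members, by distance in bases from the transcription start (x axis, dotted line at the start); boxes above a line are on the strand of the gene and boxes below it on the other strand. Matches to TGACG are most frequent in the 3 NR4A windows (4 in each), and the single CArG box lies in the Egr2 window.

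Egr2 and Egr3 had the largest log2 fold changes of the members with A1, and all 3 EGR genes were lower with A1-OVA than with A1. Levels are given as CPM, the counts of a gene scaled to the size of its library. Egr1 (ENSMUSG00000038418, chr18:34859823-34864984) encodes the founding zinc finger factor of the family, a fast reporter of growth factor and stress signals. It was at 24.9, 26.8, 28.1 and 29.1 CPM in the control samples. It was at 78.8, 85.1, 73.8 and 68.5 CPM in the A1 samples and at 37.8, 42.2, 48.5 and 49.2 CPM in the A1-OVA samples. The 3 groups did not overlap, and A1-OVA lay between control and A1. Against control, Egr1 rose by 1.49 on the log2 scale with A1 (SE 0.08, adjusted p = 4.27e-13) and by 0.71 with A1-OVA (SE 0.08, adjusted p = 1.57e-07). From A1 to A1-OVA it fell by 0.78 (95% interval -0.94 to -0.63, adjusted p = 5.54e-07).

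Egr2 (ENSMUSG00000037868, chr10:67535475-67542188, plus strand), a factor known from peripheral myelination and T cell anergy, was the least abundant EGR member. It was at 1.55, 1.71, 1.55 and 1 CPM in control and at 7.95, 7.86, 7.79 and 5.95 CPM with A1. With A1-OVA it was at 3.55, 2.91, 4.16 and 3.51 CPM, so that again no groups overlapped. Its log2 fold change was 2.33 with A1 (SE 0.16, adjusted p = 4.72e-11) and 1.27 with A1-OVA (SE 0.18, adjusted p = 4.43e-06). The difference between A1-OVA and A1 was -1.06 (95% interval -1.35 to -0.78, adjusted p = 2.53e-05).

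Egr3 (ENSMUSG00000033730, chr14:70077203-70082614, plus strand), which shares the DNA-binding domain of Egr1 and acts in muscle spindles and lymphocytes, had the largest change of the 9 with A1. It was at 2.17, 3.25, 2.35 and 2.13 CPM in control, at 14.5, 14.7, 13.9 and 13.4 CPM with A1 and at 6.67, 6.65, 6.07 and 7.27 CPM with A1-OVA. The groups did not overlap. The log2 fold change was 2.50 with A1 (SE 0.12, adjusted p = 4.96e-14), 1.42 with A1-OVA (SE 0.13, adjusted p = 4.48e-09) and -1.08 between A1-OVA and A1 (95% interval -1.28 to -0.88, adjusted p = 2.79e-07). Among all 11314 tested genes, the differences of Egr3 and Egr2 between A1-OVA and A1 ranked 8 and 9 from the lowest, and that of Egr1 ranked 28. Egr4, the remaining EGR gene, had 0 counts in all 12 samples.

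**Figure D3:**
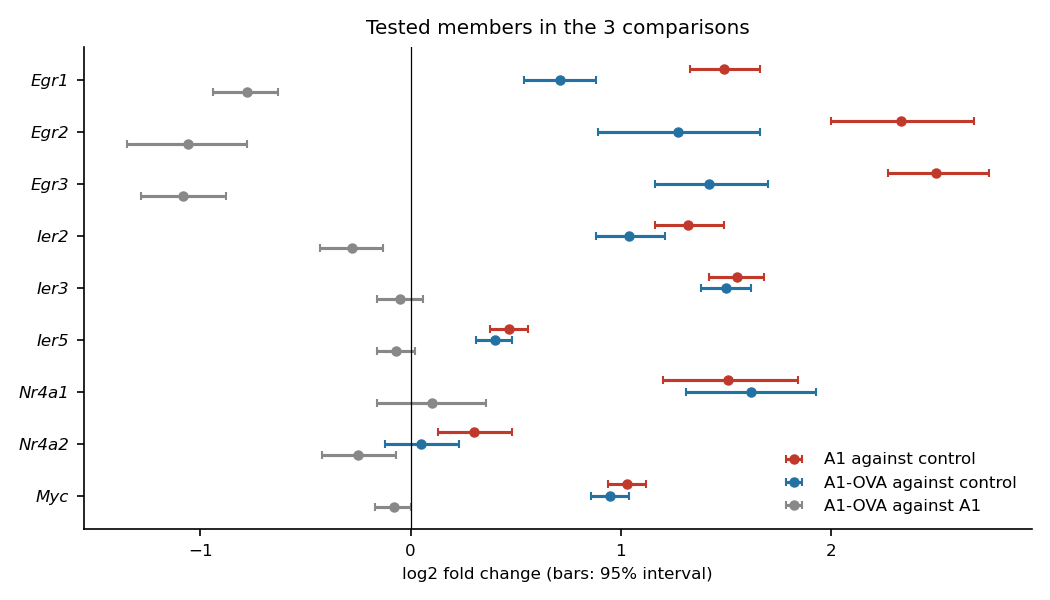
Log2 fold change (x axis, points) with its 95% interval (bars) of the 9 tested members in the 3 comparisons, from 1 fit of all 12 samples. For Egr1, Egr2 and Egr3 the A1-OVA points lie between 0 and the A1 points and the difference between A1-OVA and A1 is between -1.08 and -0.78, whereas the intervals of Ier3, Ier5, Nr4a1 and Myc for that difference reach 0.

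The EGR proteins act with the NAB corepressors, which limit EGR activity. Nab2 was at 40.3 to 43 CPM in control, at 75.8 to 81.2 CPM with A1 and at 70.3 to 78.7 CPM with A1-OVA. It rose by 0.92 with A1 and by 0.85 with A1-OVA on the log2 scale (adjusted p = 2.26e-13 and 8.98e-13), with a difference between the treatments of -0.07 (95% interval -0.16 to 0.02, adjusted p = 0.334). Nab1 fell by 0.15 with A1 (adjusted p = 0.00294). Its log2 fold change with A1-OVA was 0.01 (adjusted p = 0.81).

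Of 16 listed partners and targets of EGR factors, 14 were tested. With A1, 11 were higher and 2 lower (median log2 fold change 0.69), and with A1-OVA 12 were higher and 1 lower (median 0.74). Over all tested genes, 31.7% were called higher and 31.1% lower with A1, and 29.7% and 27.9% with A1-OVA. Fgf2, a fibroblast mitogen, was at 13.7 to 18.4 CPM in control, 126 to 132 CPM with A1 and 99.9 to 114 CPM with A1-OVA. Its log2 fold changes against control were 2.98 (SE 0.06, adjusted p = 2.26e-19) and 2.69 (SE 0.06, adjusted p = 1.52e-18), and the difference between A1-OVA and A1 was -0.28 (adjusted p = 0.00108). The angiogenic factor Vegfa rose by 1.13 and 1.10, the hyaluronan receptor Cd44 by 1.39 and 1.20 and the growth factor Pdgfa by 1.26 and 1.45 with A1 and A1-OVA.

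The listed EGR targets did not move one way when OVA was added. Higher with A1-OVA were 5 of the 14 and lower 2, with a median of -0.05 against 0.01 over all tested genes. The shares called over all tested genes were 6.05% higher and 6.81% lower. Pdgfb, the second platelet-derived growth factor chain, was at 2.21 to 2.82 CPM with A1 and at 4.2 to 5.94 CPM with A1-OVA. This was a difference of 1.10 (SE 0.14, adjusted p = 2.43e-05) in the direction opposite to that of the EGR genes. Cd44 was lower with A1-OVA than with A1 (-0.19, adjusted p = 0.00254).

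The 3 IER genes are short genes that are named together for their early induction and are not all related in sequence. Ier2 (ENSMUSG00000053560, chr8:84661331-84662852, minus strand) encodes a nuclear protein linked to cell motility. It was at 11.5, 9.22, 11.8 and 12.4 CPM in control, at 30.7, 27.9, 25.7 and 27.8 CPM with A1 and at 22.5, 23.2, 23.8 and 22.7 CPM with A1-OVA. No groups overlapped. The log2 fold changes were 1.32 with A1 (SE 0.08, adjusted p = 3.87e-12) and 1.04 with A1-OVA (SE 0.08, adjusted p = 2.97e-10). The difference between A1-OVA and A1 was -0.28 (95% interval -0.43 to -0.13, adjusted p = 0.0122). Without A1 replicate 1, its highest A1 sample, it was -0.24 and missed the threshold (edgeR's quasi-likelihood test, adjusted p = 0.0508).

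Ier3 (ENSMUSG00000003541, chr17:35821684-35822923, plus strand), a regulator of apoptosis and of NF-kappa B and ERK signalling, was at 19, 18.7, 18.1 and 18.6 CPM in control. It was at 47.8, 56.3, 57.2 and 56.8 CPM with A1 and at 54.2, 50.5, 52.7 and 53.2 CPM with A1-OVA. Both treated groups lay above control and overlapped each other. It rose by 1.55 with A1 (SE 0.06, adjusted p = 3.2e-15) and by 1.50 with A1-OVA (SE 0.06, adjusted p = 5.98e-15). The difference between the treatments was -0.05 (95% interval -0.16 to 0.06, adjusted p = 0.589).

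Ier5 (ENSMUSG00000056708, chr1:155096361-155099636, minus strand), which acts on heat shock factor 1 with protein phosphatase 2A, was already abundant in control, at 58.2, 56.6, 58.7 and 60.1 CPM. It was at 78.5, 81.1, 78.9 and 84.5 CPM with A1 and at 78, 80.3, 74.9 and 74.4 CPM with A1-OVA. The increases of 0.47 and 0.40 on the log2 scale (SE 0.04 for both, adjusted p = 4.35e-09 and 5.81e-08) were the smallest of the IER genes. The 2 treated groups overlapped, with a difference of -0.07 (95% interval -0.16 to 0.02, adjusted p = 0.291). Its relative Ier5l rose by 0.44 with A1 and by 0.26 with A1-OVA (adjusted p = 0.000187 and 0.0139). The second call was lost without Negative replicate 2 (0.21, edgeR adjusted p = 0.0598) and with DESeq2. Of 8 partners of the IER proteins, among them Hsf1 and subunits of protein phosphatase 2A, 7 were higher with A1 (median 0.15), 3 were higher with A1-OVA (median 0.06) and 1 was lower in A1-OVA than in A1 (median -0.08). The opposite directions had 0 calls by edgeR. Of these, the lower direction with A1-OVA had 1 gene at an unadjusted p under 0.05 and 1 call by DESeq2, and the other 2 had 0 by either count. Over all tested genes, 31.7% were called higher with A1, 29.7% higher with A1-OVA and 6.81% lower between A1-OVA and A1.

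The NR4A genes encode orphan nuclear receptors, and the values here are their transcript levels, not their activity. Nr4a1 (ENSMUSG00000023034, chr15:101254269-101274795, plus strand), also called Nur77, was at 2.17, 1.71, 2.54 and 2.19 CPM in control. It was at 6.44, 7.48, 4.81 and 5.88 CPM with A1 and at 6.31, 6.52, 7.33 and 6.29 CPM with A1-OVA. Both treated groups lay above control and overlapped each other. The log2 fold changes were 1.51 (SE 0.15, adjusted p = 2.09e-08) and 1.62 (SE 0.15, adjusted p = 4.86e-09), with a difference between the treatments of 0.10 (95% interval -0.16 to 0.36, adjusted p = 0.634).

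Nr4a2 (ENSMUSG00000026826, chr2:57106830-57124003, minus strand), also called Nurr1 and known from dopaminergic neurons, was the most abundant NR4A gene and the least responsive tested member. It was at 11.8, 11.5, 10.5 and 11.3 CPM in control, at 12.9, 16.1, 13.7 and 12.9 CPM with A1 and at 12.3, 12, 11.8 and 10.8 CPM with A1-OVA. The A1 samples lay above both other groups, which overlapped. It rose by 0.30 with A1 (SE 0.08, adjusted p = 0.0035). With A1-OVA the log2 fold change was 0.05 (95% interval -0.12 to 0.23, adjusted p = 0.606). From A1 to A1-OVA it was -0.25 (95% interval -0.42 to -0.07), which missed the threshold at an adjusted p of 0.0549, although all 4 A1-OVA samples lay below the A1 samples.

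Nr4a3 (ENSMUSG00000028341, chr4:48045153-48086447, plus strand) was at or near the detection floor, taken here as 3 counts. It had 0, 2, 3 and 2 counts in the control samples, 2, 6, 4 and 5 in the A1 samples and 1, 8, 6 and 3 in the A1-OVA samples. The sums were 7, 17 and 18 counts. Without the filter on low counts, its log2 fold change against control was 1.48 with A1 and 1.39 with A1-OVA. By edgeR's quasi-likelihood test the unadjusted p was 0.0285 and 0.0384, and the adjusted p was 0.0613 and 0.0853. A difference from control was thus not called at this depth. Of the retinoid X receptors, which pair with Nr4a1 and Nr4a2, 2 of 3 were tested, and in each comparison with control 1 was higher and 1 lower, although with A1-OVA only 1 of them was called under 15 of 20 alternatives. Rxra fell by 0.38 with A1 and by 0.36 with A1-OVA on the log2 scale (adjusted p = 1.77e-06 and 3.73e-06). The difference between the treatments was called in 0 of the 2 by edgeR's quasi-likelihood test and by DESeq2, and 0 had an unadjusted p under 0.05. For these receptor counts, the shares over all tested genes were 31.7% higher and 31.1% lower with A1, and 29.7% and 27.9% with A1-OVA. Between A1-OVA and A1 they were 6.05% and 6.81%.

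Myc (ENSMUSG00000022346, chr15:61985391-61990374, plus strand), the transcription factor of growth and ribosome genes, had the most counts of all members. It was at 66.6, 62.8, 67.6 and 70.4 CPM in control, at 132, 135, 138 and 142 CPM with A1 and at 127, 127, 137 and 127 CPM with A1-OVA. Both treated groups lay well above control and overlapped each other. The increase was 1.03 on the log2 scale with A1 (SE 0.04, adjusted p = 8.55e-15) and 0.95 with A1-OVA (SE 0.04, adjusted p = 3.54e-14). The difference between the treatments was -0.08 (95% interval -0.17 to 0.00, adjusted p = 0.204).

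Mycl, a second MYC gene of much lower level, was at 1.98 to 2.85 CPM in control, 4.12 to 4.66 CPM with A1 and 5.85 to 7.59 CPM with A1-OVA, with no overlap. Like the EGR genes it was higher than control with both treatments, with log2 fold changes of 0.85 with A1 and 1.46 with A1-OVA (adjusted p = 2.5e-05 and 2.59e-09). Its difference between A1-OVA and A1 was 0.61 (SE 0.12, adjusted p = 0.00172), opposite in sign to that of the EGR genes. The remaining family gene, Mycn, had 0 counts in all 12 samples. Max, the obligate partner of MYC proteins, was at a mean of 59.6 CPM in control, 63.0 with A1 and 60.7 with A1-OVA, with log2 fold changes of 0.08 and 0.02 (adjusted p = 0.196 and 0.71). Of the 11 genes of the MAX and MXD network, 3 were higher and 3 lower with each treatment, and 1 was higher and 1 lower between A1-OVA and A1, of which 1 was called under 13 of 20 alternatives. These counts are near the shares over all tested genes, which were 31.7% higher and 31.1% lower with A1, and 29.7% and 27.9% with A1-OVA. Between A1-OVA and A1 the shares were 6.05% and 6.81%.

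MYC-activated genes were mostly higher with both treatments. Among all tested genes, 31.7% were called higher and 31.1% lower with A1, and 29.7% and 27.9% with A1-OVA. Between A1-OVA and A1 the shares were 6.05% and 6.81%. Of 26 listed genes, largely of nucleolar and nucleotide functions, 25 were tested. With A1 22 were higher and 2 lower (median 0.60), and with A1-OVA 20 were higher and 2 lower (median 0.46). The transferrin receptor Tfrc had the largest log2 fold changes, 1.46 with A1 and 1.33 with A1-OVA (SE 0.04 for both, adjusted p = 2.26e-17 and 1.2e-16), from 116 to 130 CPM in control to 325 to 356 and 303 to 316 CPM. In A1-OVA against A1, 6 of the 25 were lower and 0 higher by edgeR and by DESeq2 (2 at an unadjusted p under 0.05), with a median of -0.09. Without A1 replicate 3, 3 of the 25 were called. Of 5 MYC-repressed genes, 1 was higher and 3 lower with A1, 2 were higher and 2 lower with A1-OVA, and 2 were higher and 0 lower between A1-OVA and A1 (0 lower by DESeq2 and at an unadjusted p under 0.05, and 1 call in all without A1 replicate 4).

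Each other tested member was also set against Myc within each library, as a log2 ratio that does not depend on how libraries are scaled. This was chosen after the data were seen and uses the same samples as the differences above, so that it is no independent evidence, and it compares each member with Myc only. From A1 to A1-OVA the ratio to Myc changed by -0.71 for Egr1, -0.98 for Egr2, -1.0 for Egr3 and -0.20 for Ier2. For each of these 4, all A1-OVA samples lay below all A1 samples, with an exact two-sided permutation p of 0.0286, the smallest that 4 against 4 samples allow, and 0.0571 after adjustment over the 8 ratios. The changes for Ier3, Ier5, Nr4a1 and Nr4a2 were 0.04, 0.01, 0.20 and -0.16 with overlapping samples (exact permutation p = 0.6, 0.857, 0.286 and 0.143).

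Levels of different members were compared as CPM per kb of merged exons, which removes gene length. In control, Myc was highest at 24.6 ± 1.15 CPM per kb (SD, n = 4), followed by Ier5 at 17.8 ± 0.449 and Ier3 at 16.4 ± 0.317. Ier2 (7.37) and Egr1 (6.07) overlapped in their sample ranges, Nr4a2 followed at 2.78, and Nr4a1 (0.614), Egr3 (0.562) and Egr2 (0.428) overlapped as neighbours above Nr4a3 at 0.0179. In the A1 samples Ier3 reached 48.2 ± 3.97 CPM per kb and overlapped Myc at 50.3 ± 1.54, with Ier5 now at 24.6. Egr1 at 17.1 overlapped Ier2 at 18.4, and Egr3 at 3.20 overlapped Nr4a2 at 3.43. In the A1-OVA samples Myc (47.6) and Ier3 (46.5) overlapped and no other neighbours did, with Egr1 at 9.90, below Ier2 at 15.1, and Egr3 (1.51) and Egr2 (1.04) below Nr4a1 (1.88).

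Within each family the makeup shifted on this per-length scale. Egr1 held 86.0% ± 2.68 of the EGR level in control, 76.0% ± 0.786 with A1 and 79.4% ± 1.81 with A1-OVA (SD, n = 4 each). Ier3 rose from 39.5% ± 1.46 of the IER level to 52.8% ± 2.69 and 54.7% ± 1.21, as Ier5 went from 42.8% in control to 27.6% with A1-OVA. Nr4a1 went from 18.0% ± 2.92 of the NR4A level to 33.4% ± 3.38 and 39.1% ± 1.88.

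**Figure D4:**
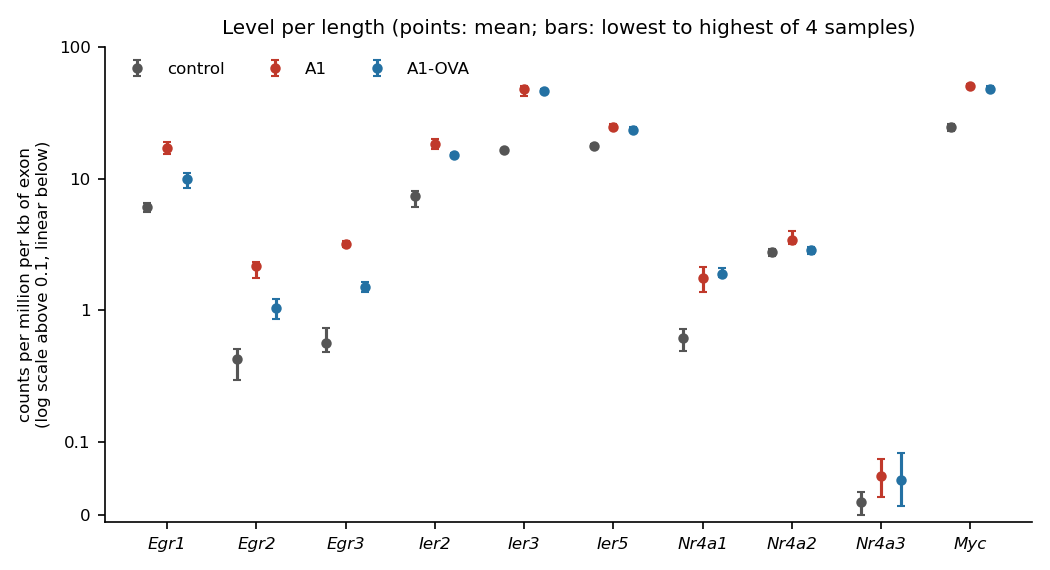
Level of each member in CPM per kb of merged exons (y axis, log scale above 0.1 and linear below it) in the 3 groups; points are means and bars reach from the lowest to the highest of 4 samples. Myc, Ier3 and Ier5 are the highest in every group, and Nr4a3 is under 0.1 in all of them.

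Genes of the signalling routes that lead to early genes had smaller median log2 fold changes than the members. Of 15 listed transcription factors 14 were tested, with 7 higher and 1 lower with A1 (median 0.12), 6 higher and 1 lower with A1-OVA (median 0.10) and 0 higher and 2 lower between A1-OVA and A1 (median -0.06, with 1 call without A1 replicate 2, A1 replicate 4 or A1-OVA replicate 4). Srf itself rose by 0.57 with A1 and by 0.74 with A1-OVA (SE 0.07 for both, adjusted p = 4.08e-07 and 6.17e-09), with a difference of 0.17 (adjusted p = 0.0976). Of 12 kinases of the ERK, p38 and JNK routes, 5 were higher and 3 lower with A1 (median 0.04), 3 higher and 2 lower with A1-OVA (median -0.02) and 0 higher and 1 lower between them (median -0.02). Where 0 were called by edgeR, DESeq2 called 0 as well, and 1 of the factors and 2 of the kinases were higher at an unadjusted p under 0.05. These are transcript levels and do not measure kinase activity. For both lists, the shares over all tested genes were 31.7% higher and 31.1% lower with A1, and 29.7% and 27.9% with A1-OVA. Between A1-OVA and A1 they were 6.05% and 6.81%.

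Of 24 other rapidly induced genes that were listed, 23 were tested and most were higher, but Fos was not. With A1 18 were higher and 3 lower (median 0.93), with A1-OVA 18 higher and 1 lower (median 0.82), and between A1-OVA and A1 3 were higher and 6 lower (median -0.02). The last counts include Npas4 and Arc, whose calls were kept under only 9 of 19 and 14 of 20 alternatives. Of all tested genes, 31.7% were called higher and 31.1% lower with A1, and 29.7% and 27.9% with A1-OVA. Between A1-OVA and A1 the shares were 6.05% and 6.81%. Fosl1, the FOS relative that appears later after a stimulus, rose by 1.87 and 1.63 with A1 and A1-OVA and was lower with A1-OVA than with A1 (-0.24, adjusted p = 0.000659). Junb (1.08 and 0.74) and the kinase Sgk1 (1.19 and 0.88) were also lower with A1-OVA than with A1, by -0.34 and -0.32 (adjusted p = 0.000285 and 0.000387). Gadd45b, a stress gene (0.96 and 1.26), and the kinase Plk2 (1.00 and 1.29) were higher with A1-OVA than with A1, by 0.29 for both (adjusted p = 0.00209 and 0.00149). Phlda1 (1.34 and 1.25), Maff (1.11 and 1.23) and Csrnp1 (1.11 and 1.09) had adjusted p-values of 0.329, 0.155 and 0.955 for that difference.

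Fos, the classical early gene beside Egr1, was at 5.88, 3.19, 2.85 and 1.94 CPM in control, at 1.16, 1.3, 0.458 and 1.38 CPM with A1 and at 1.52, 1.2, 3.7 and 1.91 CPM with A1-OVA. All A1 samples lay below all control samples, and A1-OVA overlapped both. Fos fell by 1.68 with A1 (SE 0.38, adjusted p = 0.000569), and its log2 fold change was -0.73 with A1-OVA (adjusted p = 0.0512). The neuronal early genes Arc and Npas4 rose from low levels, Arc by 1.40 and 0.85 and Npas4 by 2.60 and 3.32 with A1 and A1-OVA (adjusted p = 4.01e-07, 0.000396, 3.36e-06 and 1.56e-08). Npas4 had 5 to 8 counts in the control samples.

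Factors that bind AU-rich transcripts or act in their decay, a class to which many early transcripts belong, did not move one way. The shares called over all tested genes were 31.7% higher and 31.1% lower with A1, and 29.7% and 27.9% with A1-OVA. Between A1-OVA and A1 they were 6.05% and 6.81%. Of 9 listed, 4 were higher and 3 lower with A1 (median 0.07), 4 were higher and 4 lower with A1-OVA (median 0.05), and 1 was higher and 0 lower by edgeR and by DESeq2 between A1-OVA and A1 (median -0.01, with 2 lower at an unadjusted p under 0.05). Among the 4 that were higher was Elavl1 (HuR), which stabilises such transcripts (0.30 with A1, adjusted p = 3.74e-07), named after its values were seen. Zfp36l1, a relative of tristetraprolin that binds AU-rich elements, was at 89.2 to 105 CPM in control, 32.4 to 38.3 CPM with A1 and 39 to 42.6 CPM with A1-OVA. It fell by 1.47 with A1 and by 1.23 with A1-OVA (SE 0.06 for both, adjusted p = 4.85e-15 and 6.07e-14). Zfp36l2, on the same list and also named after its values were seen, went the other way. It was at 291 to 306 CPM in control, 371 to 376 CPM with A1 and 359 to 396 CPM with A1-OVA. Whether transcript decay changed was not tested.

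**Figure D5:**
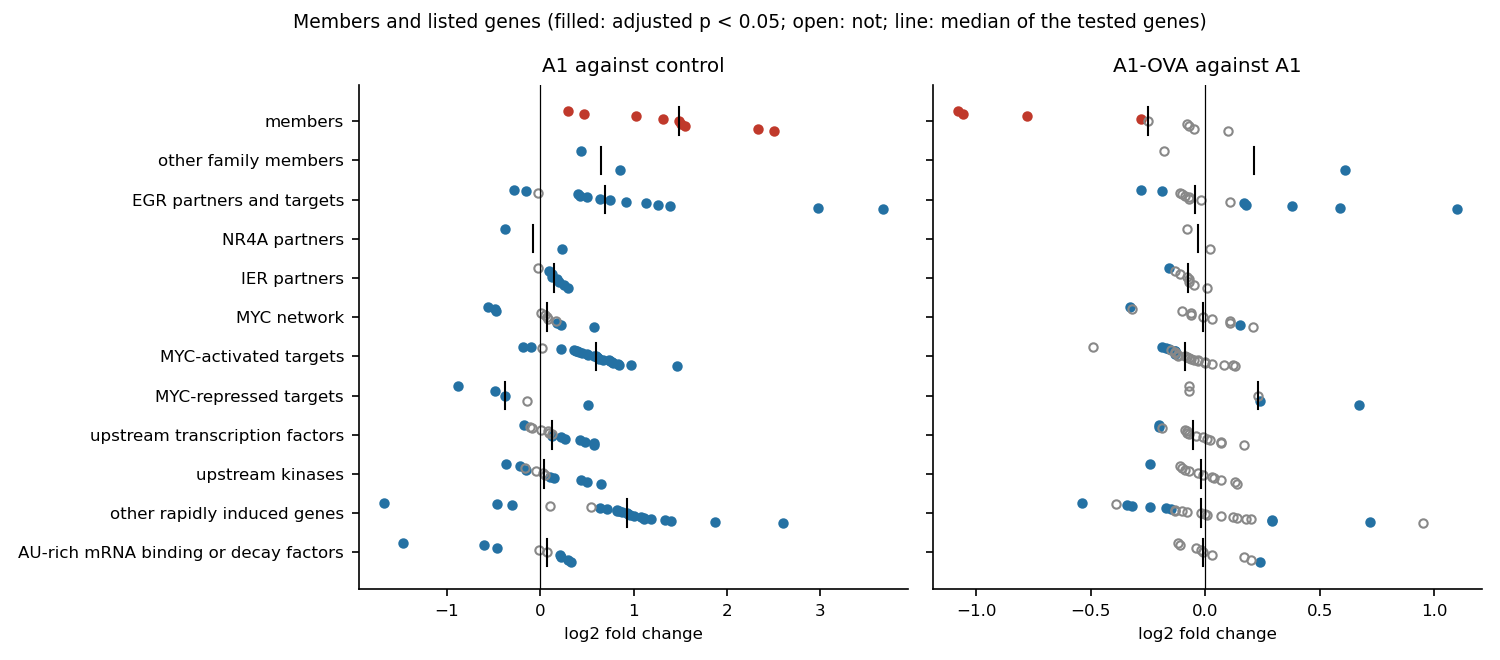
Log2 fold change (x axis) of the tested members (red) and of the tested genes of each list (blue), for A1 against control on the left and A1-OVA against A1 on the right; filled points had an adjusted p-value under 0.05, open points did not, and lines mark medians. On the left the members centre on 1.49, the other rapidly induced genes on 0.93 and the upstream kinases on 0.04, and on the right the 3 EGR genes stand at the low end.

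The genes whose pattern over the 12 samples was nearest to a member's were found by the root-mean-square difference of centred log2 CPM. For Egr1 they were Scx (0.155), Errfi1 (0.179) and Plat (0.198). Such genes share the member's differences between groups by the way they were found. For Egr2 they were Vmn2r79 (0.266), the ERK phosphatase Dusp6 (0.292) and Kcnk2 (0.298), and for Egr3 Gpr39 (0.258), Smoc1 (0.27) and Vmn2r79 (0.283). The smallest differences were those of Myc, to Rbpms2 (0.0393), Ctdp1 (0.0453) and Smyd5 (0.0513). Those of Ier2 were Itprip (0.0974), Dok1 (0.0978) and Klhl21 (0.1), and those of Ier3 included Ccn4 (0.0771) and Chst11 (0.0851). Those of Nr4a1 were Foxs1 (0.171), Itga5 (0.172) and Hip1r (0.177).

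Each sample had 13702348 to 16881995 counts. Of 10 MSC markers 9 were above 3 counts in all 12 samples, but Thy1, which encodes CD90, was so in only 1 of them. Nt5e, the CD73 gene, passed this floor but never exceeded 14 counts. The summed level of the list moved with treatment, from 8150 to 8560 CPM in control to 5670 to 6050 CPM with A1 and 5790 to 6250 CPM with A1-OVA. Most of this was the chemokine gene Cxcl12, with means of 3910, 1514 and 1692 CPM. Col1a1, the other abundant marker, was at 3335, 3246 and 3297 CPM. Pdgfra (247, 125 and 111 CPM), Vcam1 (226, 117 and 122) and Ly6a (35.1, 23.3 and 24.9) were also called lower with both treatments. Pdgfrb was called lower with A1-OVA only (-0.14 on the log2 scale). Of the tested MSC markers, Cd44 alone was called higher, with both treatments. Eng, Nt5e and Col1a1 were not called against control. Leukocyte markers summed to 7.98 to 8.66, 10.6 to 12.9 and 9.06 to 11.2 CPM in the 3 groups. Cd14 made up most of it, with Cd3e at 0 and Ptprc at 4 counts or fewer in every sample. Endothelial markers (5 genes) summed to 0.251 to 0.557, 0.218 to 0.916 and 0.33 to 0.57 CPM. Adipocyte markers (4 genes, Lep at 0) summed to 2.95 to 5.01, 1.38 to 1.95 and 1.32 to 2.32 CPM. Osteoblast markers (4 genes, 3 of them at or under 3 counts) summed to 0.564 to 1.05, 2.11 to 2.9 and 1.42 to 1.59 CPM. The part of the lists that differed between groups in the members' results was not tested, and the endothelial sums of the 3 groups overlapped. In bulk RNA, fewer cells of a type and less RNA per cell cannot be told apart.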

How the data were processed

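The authors made strand-specific poly(A) libraries and mapped the read pairs with STAR 2.7 to GRCm38. They deposited raw counts from featureCounts 2.0 for 55487 genes. The columns were matched to samples by their titles. Symbols and coordinates came from GENCODE M21, which holds 99.53% of the identifiers, and promoter windows from RefSeq. Protein-coding genes took 97.68% to 98.53% of a sample's counts.

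Protein-coding genes that passed edgeR's filterByExpr were scaled by TMM. The quasi-likelihood test of edgeR 4.0.16 (R 4.3.3) was run in 1 fit of all 12 samples with 3 groups. The Benjamini-Hochberg method was applied over all 11314 tested genes, and a call needed an adjusted p-value under 0.05. CPM values use TMM-scaled library sizes. The code was tested on simulated data. The variance between replicates of a group was 1.92 to 6.87 times that of counting, so that none was a copy of another. Floors and precision per count cover counting error only.

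The members and lists were chosen with earlier results of these data known. Genes named beside the members were listed genes that were called with a log2 fold change of at least 1 in either direction in a comparison, the direct partners (Nab1, Nab2, Egr4, Ier5l, Mycn, Mycl, Max, Srf and Rxra), and the 3 genes nearest in pattern to each member that changed by at least 0.5 against control. A few genes selected in this way are not reported here. Genes named as examples of what a list holds were given no value. Alternatives were DESeq2 1.42.0, RLE and upper-quartile scaling, a fit without the filter, a minimum of 10 counts per sample, every gene whatever its type, a fit of 2 groups at a time, the replicate number as a block, and each sample left out in turn.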

Additional observations from a re-analysis of the deposited data

Results flagged for a closer look

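The effect of A1 with OVA differed from that of A1 alone in 4 members, each tested as the difference between the treatments: Egr1 by -0.78, Egr2 by -1.06, Egr3 by -1.08 and Ier2 by -0.28 on the log2 scale (adjusted p = 5.54e-07, 2.53e-05, 2.79e-07 and 0.0122), lower in all 4 A1-OVA samples than in all 4 A1 samples. The share of all tested genes separated in this way was not counted. In 3 of 30 groups of member values, 1 sample stood apart from the other 3 by Dixon's criterion, which chance alone meets in about 1 of 20 groups. They were the lowest A1 sample of Egr2 (5.95 CPM), the lowest A1 sample of Ier3 (47.8 CPM) and the highest A1-OVA sample of Myc (137 CPM). They belonged to different libraries.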

How the results depend on the processing

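The number of members called was 9 with A1 and 8 with A1-OVA under all 20 alternatives, and 3 to 5 between A1-OVA and A1. It was 5 with RLE scaling, where Nr4a2 passed (-0.25, adjusted p = 0.0496), and 3 without A1 replicate 1, where Ier2 missed (-0.24, adjusted p = 0.0508). The replicate block gave 9, 8 and 4 calls. The deviations of same-numbered samples correlated by 0.0215 on average (2 of 12 pairs over 0.1), so that the numbers are not read as pairs. The ratio to Myc gave small values of the opposite sign for Ier3 (0.04) and Ier5 (0.01). Among named listed genes near 0, signs turned for Nab1 with A1-OVA (-0.01 with upper-quartile scaling, and -0.02 to -0.01 without Negative replicate 3 or A1-OVA replicate 1) and for Max (-0.02 without either of these, and up to 0.05 without Negative replicate 2). Between A1-OVA and A1 they turned for Rxra (-0.01 without A1 replicate 3 or A1-OVA replicate 2, up to 0.06 without A1 replicate 1), Vegfa (0.02 without A1-OVA replicate 1, 0.00 without A1-OVA replicate 2, down to -0.09 without A1-OVA replicate 3) and Csrnp1 (down to -0.09 without A1 replicate 1, but 0.08 without A1 replicate 3 and 0.03 without A1 replicate 4 or A1-OVA replicate 4). The Fos difference with A1-OVA passed the threshold under 7 alternatives, with adjusted p down to 0.00373 without A1-OVA replicate 3. The causes were not tested. Of list counts, 613 stayed within 1.5 times and 47 did not, 28 of them those of the NR4A partners with A1-OVA and the MYC network between A1-OVA and A1. With 4 samples a group and few counts for Egr2, Nr4a1, Fos and Npas4, small differences in them were not resolved, and Nr4a3 had too few counts to pass the filter. A single dose and time were sampled.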
